A study of Homo sapiens with 6 samples.

Results

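The imprinted genes were examined in MIA-PaCa2 cells after siRNA directed against the long non-coding RNA H19. An imprinted gene is expressed mainly from the copy inherited from one parent. The 40 genes of this set were chosen by name from those known to be imprinted in human or mouse, with H19 and its neighbour IGF2 left out, and all 40 were found among the 39261 named probe sets of the array, each with 1 probe set. MIA-PaCa2 is an established cell line from a human pancreatic ductal adenocarcinoma. The cells received the H19 siRNA construct siH19-2 (3 arrays) or the AllStars Negative Control siRNA, termed NC (3 arrays), both by lipotransfection, and total RNA was harvested 24 h later and hybridised to Clariom D arrays. The amount of siRNA is stated as 20 µg in the sample labels and as 50 nM in the methods of the study, and which applied to these arrays is not known. It is not stated whether the 3 arrays of a group came from separate cultures, so the p-values measure the spread between these arrays, which may be technical. Only 1 construct against H19 was analysed here.

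Imprints are DNA methylation marks laid down in the egg or the sperm at imprinting control regions, which then silence or permit the genes around them on that chromosome only. Imprinted genes therefore lie in clusters, and a cluster usually holds a long non-coding RNA next to protein-coding genes, as H19 lies next to IGF2. Many of the proteins regulate growth before birth, the placenta, metabolism or the brain. In mouse, H19 is known to bind the methyl-CpG binding protein MBD1 and to keep a network of imprinted genes low, among them Igf2, Slc38a4 and Mest. Several imprinted genes are silenced, or lose their imprint, in tumours, and in most adult tissues outside the brain UBE3A is expressed from both copies.

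ZFP57, a zinc finger protein that protects imprints in the early embryo, reads the letters TGCCGC when they are methylated. These letters, or their reverse complement GCGGCA, were searched on both strands of the promoter windows of RefSeq (assembly GRCh38.p14), which span 250 bases before to 50 bases after a start of transcription. Windows were available for 27 of the 40 imprinted genes, and 13 of these 27 (48.1%) had a match in at least 1 window, against 5319 of all 27305 genes (19.5%). The imprinted genes had more windows per gene than all genes, and each window adds a chance of a match, which raises their share by gene. Counted by window, 20 of 63 windows of the imprinted genes (31.7%) and 5839 of all 34943 windows (16.7%) held a match. The genes with a match were ATP10A, BLCAP, DIRAS3, GNAS, GRB10, L3MBTL1, MEG3, MEST, NAP1L4, NDN, PLAGL1, SNRPN and SNURF. A match was found for 7 of 11 genes expressed from the paternal copy and for 2 of 7 genes expressed from the maternal copy. The median number of CG dinucleotides was 18 in a window of the imprinted genes and 14 in all windows. This is a description of letters without a test, because several windows belong to 1 gene and SNRPN and SNURF share a window.

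The promoters of UBE3A and COPG2, the only imprinted genes of the set that passed the test below, are shown first. Those of SNURF and MEST follow, a neighbour of each in the genome that did not pass it. For each gene the window with the most matches is shown, and among equals the one with the most CG dinucleotides. Each window is printed 5′ to 3′, and capitals mark TGCCGC or GCGGCA.
UBE3A, chr15:25438975-25439274, minus strand: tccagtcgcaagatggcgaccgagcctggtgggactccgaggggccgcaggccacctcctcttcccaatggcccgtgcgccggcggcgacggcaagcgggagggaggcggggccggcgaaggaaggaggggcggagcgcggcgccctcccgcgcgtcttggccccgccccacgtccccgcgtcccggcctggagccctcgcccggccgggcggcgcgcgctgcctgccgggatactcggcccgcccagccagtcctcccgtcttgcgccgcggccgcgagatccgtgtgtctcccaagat
COPG2, chr7:130668699-130668998, minus strand: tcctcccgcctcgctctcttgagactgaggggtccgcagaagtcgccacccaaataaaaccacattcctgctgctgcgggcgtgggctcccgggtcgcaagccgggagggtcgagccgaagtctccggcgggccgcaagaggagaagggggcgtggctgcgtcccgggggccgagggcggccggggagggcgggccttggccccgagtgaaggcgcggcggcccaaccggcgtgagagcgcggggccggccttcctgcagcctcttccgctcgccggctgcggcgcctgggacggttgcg
SNURF, chr15:24954737-24955036, plus strand: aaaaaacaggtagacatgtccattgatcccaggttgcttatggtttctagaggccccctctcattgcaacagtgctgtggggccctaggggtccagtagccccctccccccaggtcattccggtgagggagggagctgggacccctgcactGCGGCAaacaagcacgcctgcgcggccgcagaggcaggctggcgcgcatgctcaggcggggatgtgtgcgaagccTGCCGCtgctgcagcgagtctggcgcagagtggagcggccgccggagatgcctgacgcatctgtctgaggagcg
MEST, chr7:130491835-130492134, plus strand: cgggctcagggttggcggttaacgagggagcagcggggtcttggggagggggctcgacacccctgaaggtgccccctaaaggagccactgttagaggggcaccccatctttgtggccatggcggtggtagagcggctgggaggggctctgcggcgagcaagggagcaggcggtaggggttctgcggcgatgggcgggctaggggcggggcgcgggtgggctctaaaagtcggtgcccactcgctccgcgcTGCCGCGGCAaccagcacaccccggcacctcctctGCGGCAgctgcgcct
Neither UBE3A nor COPG2 held the letters in any of their windows, although those shown had 44 and 37 CG dinucleotides. The window of SNURF held 2 matches among 18 CG dinucleotides. The window of MEST shown held 3 matches among 25, with 2 of the 3 overlapping each other, and its other windows held 0 to 2. ATP10A, on the other side of UBE3A, had 1 match in its window, which is not shown. Only letters were searched, and no methylation was measured in these cells.

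The arrays were alike in their overall level, with a median log2 signal of 6.16 on each of the 6 arrays. The correlation of log2 signals across probe sets was 0.993 to 0.995 within groups and 0.991 to 0.993 between groups. The siH19-2 replicate 3 stood apart from its group on the second principal component (19.7% of the variance), with a score of 21.1 against -16.6 and -11.1 for siH19-2 replicates 1 and 2, and the NC arrays scored between -0.41 and 3.98. H19, the target, had log2 signals of 7.10, 7.09 and 7.12 with siH19-2, against 7.36, 7.43 and 7.42 with NC. Its log2 fold change was -0.30 ± 0.036 (SE), so that 81.3% of the NC signal remained (limma, adjusted p = 0.012). This call was kept without siH19-2 replicate 3 or NC replicate 1 (adjusted p of 0.036 and 0.048) and lost without siH19-2 replicates 1 or 2 or NC replicates 2 or 3 (adjusted p 0.053 to 0.067). Among markers of an epithelial tumour line KRT19 was lower with siH19-2, at -0.40 (limma, adjusted p = 0.032), and 0 were higher. At an unadjusted p under 0.05 there were 3 of these 8 markers (37.5%, against 20.3% of all probe sets), all lower. KRT18 was among them at -0.11 (limma, adjusted p = 0.23), and KRT8 had -0.11 (adjusted p = 0.28). Of the 8, 6 had a negative log2 fold change and 2 a positive one. The call of KRT19 was kept only without siH19-2 replicate 3 (adjusted p = 0.040) and lost without any one of the other 5 arrays (adjusted p 0.068 to 0.12). VIM had a mean log2 signal of 13.1 in both groups, and EPCAM one of 4.52 in both, below the median of the arrays. Of 14 markers of blood, endothelial, stromal, acinar and islet cells 0 passed the test, against 5.26% of all probe sets. An unadjusted p under 0.05 was found for 2 of them (14.3%, against 20.3%), and their median log2 fold change was 0.047. The part of these values in the results below was not tested.

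With siH19-2, 2 of the 40 imprinted genes (5%) passed the test, UBE3A and COPG2, and both were higher. Over all probe sets 2067 of 39261 passed, which is 5.26%, with 1035 higher (2.64%) and 1032 lower (2.63%), so the share among imprinted genes was close to the background. The test was limma with Benjamini-Hochberg adjustment over all 39261 probe sets, at an adjusted p under 0.05. A log2 fold change is the mean log2 signal with siH19-2 minus that with NC, and 1 log2 unit is a doubling of signal. The median log2 fold change of the 40 genes was 0.037, against 0.016 for all probe sets. The middle of the distribution, between the quartiles, ran from -0.016 to 0.092 in the imprinted genes, against -0.069 to 0.081 over all probe sets. Of the 40 genes 29 had a positive log2 fold change and 11 a negative one, and over all probe sets 55.7% were positive. Changes were small, since 29 of the 40 (72.5%) lay within 0.1 log2 units of no change, against 61% of all probe sets. The extremes were UBE3A at 0.52 and RTL1 at -0.21.

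**Figure D1:**
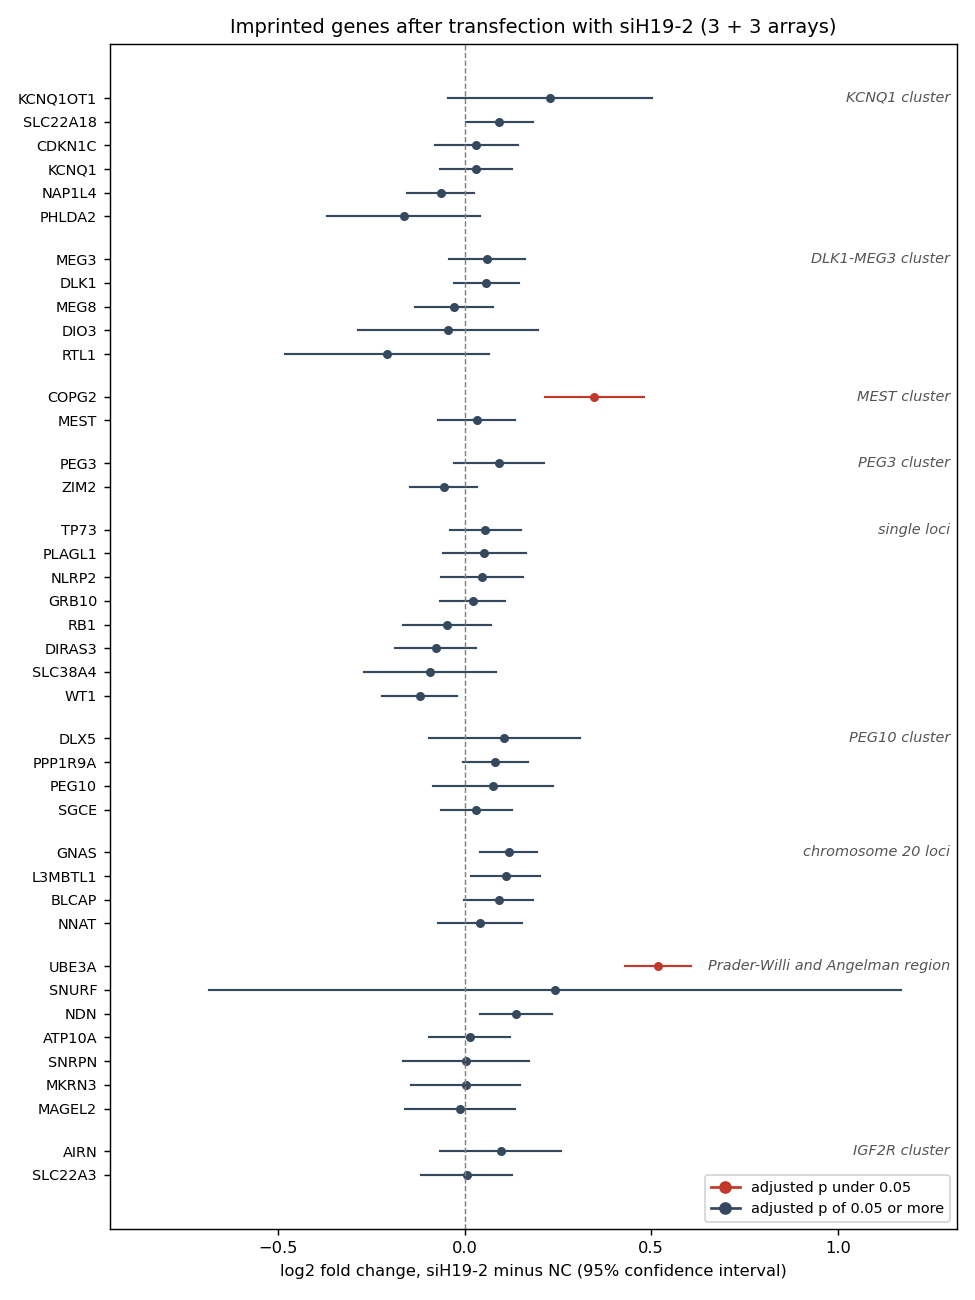
Log2 fold change (siH19-2 minus NC, horizontal axis) of each of the 40 imprinted genes, grouped by cluster. Points are limma estimates and lines are 95% confidence intervals (3 arrays per group), with an adjusted p under 0.05 in red. UBE3A at 0.52 and COPG2 at 0.35 stand to the right, most other genes lie near the dashed line of no change, and SNURF has the widest interval, from -0.68 to 1.17.

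At an unadjusted p under 0.05 there were 7 imprinted genes (17.5%), against 20.3% of all probe sets. Of these, 6 were higher (background 12%) and 1, WT1, was lower (background 8.25%). In the same 7 genes the arrays of the groups did not overlap, a combination that 19.5% of all probe sets met. Without regard to p, the groups did not overlap for 12 of the 40 (30%), against 28.3% of all probe sets. All siH19-2 arrays lay above all NC arrays for 9 of them (background 18.3%), which were SLC22A18, DLK1, COPG2, PPP1R9A, BLCAP, L3MBTL1, GNAS, NDN and UBE3A. They lay below for 3 (background 9.98%), NAP1L4, ZIM2 and WT1. With 3 arrays against 3, a permutation test of a single gene cannot give an exact p below 0.1, so single genes rest on the limma fit.

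UBE3A is the E3 ubiquitin ligase whose maternal copy is lost in Angelman syndrome. UBE3A (gene ID 7337, chromosome 15) had log2 signals of 8.69, 8.65 and 8.70 with siH19-2, against 8.18, 8.17 and 8.12 with NC. The lowest siH19-2 array was above the highest NC array. The means were 8.68 ± 0.024 with siH19-2 and 8.16 ± 0.034 with NC (SD, n = 3 each). The log2 fold change was 0.52 ± 0.036 (SE, 95% interval 0.43 to 0.61), which is 1.43-fold in signal (limma, adjusted p = 0.0025). By p-value UBE3A ranked 126 among all 39261 probe sets. It passed the test with any 1 of the 6 arrays left out, with adjusted p between 0.015 and 0.022, and did not pass with Bonferroni-Holm adjustment (adjusted p = 0.32). Without siH19-2 replicate 3, the array that stood apart, its log2 fold change was 0.51.

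COPG2 encodes a gamma subunit of the COPI coat, which returns vesicles from the Golgi apparatus to the endoplasmic reticulum, and whether it is imprinted in human is debated. COPG2 (gene ID 26958, chromosome 7) had log2 signals of 8.87, 8.84 and 9.01 with siH19-2, against 8.56, 8.58 and 8.54 with NC. Again the groups did not overlap, and siH19-2 replicate 3 was the highest of the 6. The means were 8.91 ± 0.092 with siH19-2 and 8.56 ± 0.022 with NC (SD, n = 3 each). The log2 fold change was 0.35 ± 0.054 (SE, 95% interval 0.21 to 0.48), or 1.27-fold (limma, adjusted p = 0.025). This call was less stable than that of UBE3A. It was kept without siH19-2 replicate 3, where the log2 fold change was 0.295 and the adjusted p 0.033. It was lost without any one of the other 5 arrays, with adjusted p of 0.078 and 0.053 without siH19-2 replicates 1 and 2, and 0.11, 0.090 and 0.10 without NC replicates 1, 2 and 3.

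**Figure D2:**
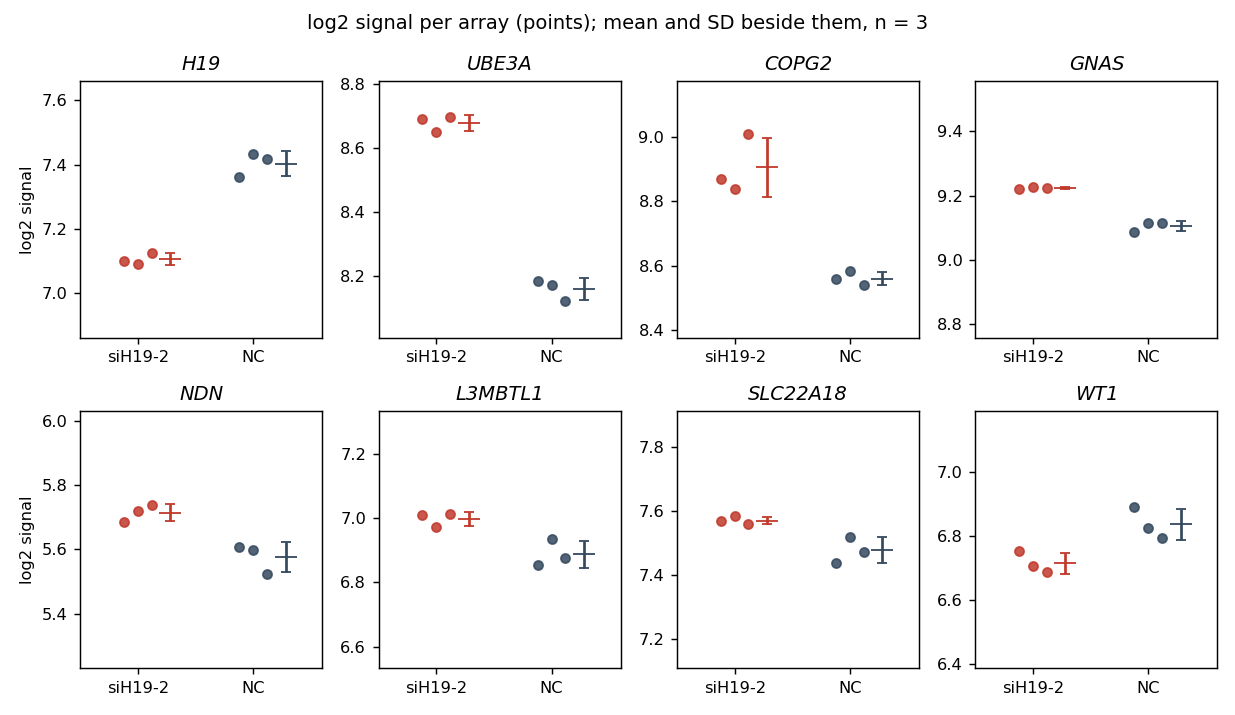
Log2 signal (vertical axis, each panel spanning the same 0.8 log2 units) of H19, the target, and of the 7 imprinted genes whose groups did not overlap at an unadjusted p under 0.05. Each point is 1 array, red for siH19-2 on the left and dark for NC on the right, with the mean and SD beside them (n = 3). The gap is widest for UBE3A, at 8.65 to 8.70 with siH19-2 and 8.12 to 8.18 with NC, and H19 and WT1 are the only panels with siH19-2 lower.

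In a description added after their values were seen, the 5 measured protein-coding genes on each side of UBE3A and COPG2 were read from the RefSeq gene order. Of the 10 neighbours of UBE3A, 0 passed the test. Their log2 fold changes ran from -0.071 for NPAP1 to 0.24 for SNURF, and the lowest adjusted p was 0.12, for NDN. Those next to it were SNURF on one side and ATP10A, a phospholipid flippase, on the other, and ATP10A had a log2 fold change of 0.014 (adjusted p = 0.90). Of the 10 neighbours of COPG2, 1 passed, PODXL, a cell surface sialomucin, at 0.17 (adjusted p = 0.046), and its call was lost with any 1 array left out (adjusted p 0.10 to 0.16). Over all probe sets 5.26% passed. MEST, whose end overlaps that of COPG2 in the annotation, had 0.033 ± 0.042 (SE, adjusted p = 0.73), and no source used here gives the positions of the probes.

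**Figure D3:**
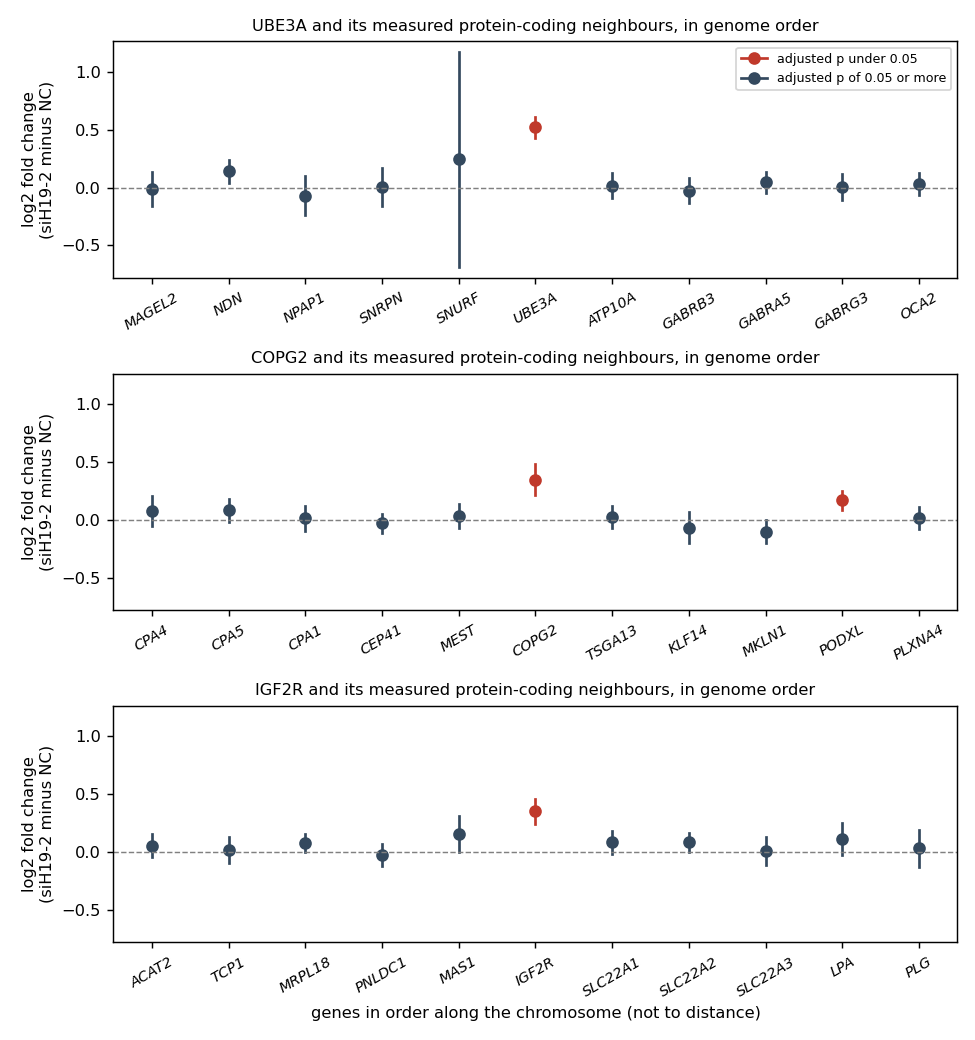
Log2 fold change (siH19-2 minus NC, vertical axis) of UBE3A, COPG2 and IGF2R and of the 5 measured protein-coding genes on each side, in order along the chromosome and not to distance. Points are limma estimates and lines are 95% intervals, with an adjusted p under 0.05 in red. UBE3A at 0.52 and COPG2 and IGF2R at 0.35 each stand above their neighbours, of which PODXL at 0.17 is the only one in red, a call lost with any 1 array left out. UBE3A, COPG2 and IGF2R had already passed the test in these same data, so their place above unselected neighbours is not a further result.

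UBE3A lies in the Prader-Willi and Angelman region of chromosome 15, where NDN, MAGEL2, MKRN3, SNRPN and SNURF are expressed from the paternal copy and the imprint of ATP10A is debated. Among the 7 imprinted genes of this region, UBE3A alone passed the test, and the median log2 fold change was 0.014. NDN encodes necdin, a MAGE family protein that restrains the cell cycle in neurons. Its log2 signals were 5.69, 5.72 and 5.74 with siH19-2, against 5.61, 5.60 and 5.52 with NC. The groups did not overlap, with a log2 fold change of 0.14 ± 0.039 (SE) that did not pass the test (limma, adjusted p = 0.12). MAGEL2, another MAGE protein of the region, had -0.012 (adjusted p = 0.94), and MKRN3, an E3 ligase known for holding back puberty, had 0.0029 (adjusted p = 0.98). SNRPN and SNURF are made from 1 shared transcript, so their probe sets may read the same RNA. SNRPN, which encodes a splicing protein of neurons, had 0.0041 ± 0.068 (SE, adjusted p = 0.98). SNURF had log2 signals of 2.54, 2.79 and 2.52 with siH19-2, against 2.89, 2.76 and 1.48 with NC. The 1.48 of NC replicate 3 was the lowest value on that array, and without this array the log2 fold change of SNURF was -0.21 in place of 0.24.

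Of the 4 imprinted genes of chromosome 20, 0 passed the test, and all 4 had a positive log2 fold change, with a median of 0.10. In 3 of the 4 all siH19-2 arrays lay above all NC arrays, against 18.3% of all probe sets. GNAS encodes the stimulatory G protein alpha subunit, which couples hormone receptors to cyclic AMP, and the locus makes further transcripts of opposite imprints that share exons. GNAS had log2 signals of 9.22, 9.23 and 9.22 with siH19-2, against 9.09, 9.12 and 9.11 with NC. The log2 fold change was 0.12 ± 0.031 (SE), 1.09-fold (limma, adjusted p = 0.10). GNAS passed under 3 of the alternatives tried, with adjusted p of 0.026 when dim probe sets were left out, 0.022 with an intensity trend and a robust prior, and 0.014 by the methods' t-test. Of the probe sets tested, 20.7%, 8.78% and 5.58% passed under these settings, against 5.26% as reported. GNAS did not pass with cyclic loess, Bonferroni-Holm or the replicate number as a block (adjusted p = 0.23). Nor did it pass with any 1 array left out (adjusted p 0.16 to 0.28). L3MBTL1, a polycomb-related reader of methylated histones, had log2 signals of 7.01, 6.97 and 7.01 with siH19-2, against 6.85, 6.93 and 6.88 with NC. Its log2 fold change was 0.11 ± 0.038 (SE, adjusted p = 0.18). BLCAP, a small protein that slows growth, had 0.091 (adjusted p = 0.25), and NNAT, a membrane proteolipid encoded within an intron of BLCAP, had 0.042 (adjusted p = 0.68).

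The KCNQ1 cluster lies next to H19 and IGF2 on chromosome 11 and is governed by its own control region, from which the paternal copy makes the long non-coding RNA KCNQ1OT1. Of its 6 genes in the set 0 passed, with a median log2 fold change of 0.031. KCNQ1OT1 had log2 signals of 5.41, 5.68 and 5.42 with siH19-2, against 5.10, 5.31 and 5.43 with NC. The groups overlapped, and the log2 fold change was 0.23 ± 0.11 (SE, adjusted p = 0.32). KCNQ1, the potassium channel gene within which KCNQ1OT1 lies in antisense, had 0.031 (adjusted p = 0.72). CDKN1C, the cyclin-dependent kinase inhibitor p57, had 0.032 ± 0.045 (SE, adjusted p = 0.75). PHLDA2, which limits growth of the placenta, had 9.12, 9.30 and 8.97 with siH19-2, against 9.26, 9.33 and 9.29 with NC. The spread was larger with siH19-2, and the log2 fold change was -0.16 ± 0.084 (SE, adjusted p = 0.35). SLC22A18, a transporter-like protein, had 7.57, 7.58 and 7.56 with siH19-2, against 7.44, 7.52 and 7.47 with NC. Its groups did not overlap, with 0.093 ± 0.036 (SE, adjusted p = 0.23). The histone chaperone NAP1L4 had -0.064 (adjusted p = 0.39). H19 itself had -0.30, as given above, and IGF2 had 0.083 ± 0.039 (SE, adjusted p = 0.31).

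In the DLK1-MEG3 cluster of chromosome 14, 0 of 5 genes passed and the median log2 fold change was -0.029. DLK1, a ligand-like protein that acts on Notch signalling, had 0.058 (adjusted p = 0.43). The maternal long non-coding RNA MEG3 had 0.060 ± 0.041 (SE, adjusted p = 0.49), and MEG8, from the same strand, had -0.029 (adjusted p = 0.77). RTL1, a protein derived from a retrotransposon and needed in the placenta, had log2 signals of 5.18, 5.31 and 5.33 with siH19-2, against 5.25, 5.55 and 5.65 with NC. The groups overlapped through NC replicate 1, with a log2 fold change of -0.21 ± 0.11 (SE, adjusted p = 0.36). DIO3, the deiodinase that inactivates thyroid hormone, had 5.87, 5.87 and 6.20 with siH19-2, against 6.003, 6.06 and 6.01 with NC. Its siH19-2 replicate 3 was the highest array and replicates 1 and 2 the lowest, and the log2 fold change of -0.044 (adjusted p = 0.85) was -0.16 without replicate 3.

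In the PEG10 cluster of chromosome 7 all 4 log2 fold changes were positive, with a median of 0.079, and 0 passed. PEG10, a retrotransposon-derived protein of the placenta, had 0.076 ± 0.065 (SE, adjusted p = 0.58). SGCE, epsilon-sarcoglycan, had 0.032 (adjusted p = 0.71), and the homeobox gene DLX5 had 0.11 ± 0.082 (SE, adjusted p = 0.54). PPP1R9A, the actin-binding protein neurabin, had 5.67, 5.63 and 5.70 with siH19-2, against 5.57, 5.57 and 5.61 with NC. Its groups did not overlap, but 0.083 ± 0.036 (SE) did not pass (adjusted p = 0.27).

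Zinc finger genes of the PEG3 cluster on chromosome 19 did not pass either. PEG3 had 0.091 ± 0.049 (SE, adjusted p = 0.37), and ZIM2, which shares exons with PEG3 at its 5′ end, had -0.055 ± 0.037 (SE, adjusted p = 0.46). In the IGF2R cluster of chromosome 6, AIRN, the RNA antisense to IGF2R, had 0.097 ± 0.066 (SE, adjusted p = 0.48), and SLC22A3, an organic cation transporter, had 0.0054 (adjusted p = 0.97).

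Of the 8 imprinted genes of the set that were placed in no cluster here, 0 passed, and the median log2 fold change was -0.012. WT1, a zinc finger transcription factor of kidney and gonad development, had log2 signals of 6.75, 6.71 and 6.69 with siH19-2, against 6.89, 6.82 and 6.79 with NC. All siH19-2 arrays were lower, with -0.12 ± 0.041 (SE, adjusted p = 0.18). SLC38A4, an amino acid transporter, had 6.43, 6.30 and 6.49 with siH19-2, against 6.60, 6.47 and 6.41 with NC. It belongs to the mouse H19 network named above, and its log2 fold change was -0.092 ± 0.072 (SE, adjusted p = 0.54). MEST is of the same network but not 1 of these 8. It had log2 signals of 6.38, 6.40 and 6.33 with siH19-2, against 6.36, 6.38 and 6.28 with NC, and the groups overlapped. The growth suppressors DIRAS3 and PLAGL1 had -0.077 (adjusted p = 0.40) and 0.053 (adjusted p = 0.58). GRB10, an adaptor that dampens insulin receptor signalling, had 0.022 (adjusted p = 0.78). The tumour suppressor RB1 had -0.047 ± 0.048 (SE, adjusted p = 0.65) and the p53 family gene TP73 had 0.055 (adjusted p = 0.49). NLRP2, a maternal factor of the early embryo, had 0.047 (adjusted p = 0.62).

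A p above the threshold does not show that a gene stayed the same, so the intervals were counted. Of the 38 genes that did not pass, 33 had a 95% interval of the log2 fold change that lay within 0.3 on either side of no change, and 36 within 0.5. The widest bound was 1.17, for SNURF. The 20 imprinted genes above the median signal of all probe sets held both calls (10%, against 9.84% of the 19630 probe sets above it), and the 20 at or below it held 0. Apart from their place on an array, such as above or below the median, signals of different probe sets are not compared with each other. The reason is that probes differ in their response.

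By the copy that is known to be expressed, the 11 maternal genes had a median log2 fold change of 0.032 with 1 call, UBE3A, and 18.2% of them had an unadjusted p under 0.05. The 18 paternal genes had a median of 0.037 with 0 calls, and 2 of them (11.1%), L3MBTL1 and NDN, had an unadjusted p under 0.05. The other 11, whose imprint varies between tissues or is debated, had a median of 0.055 with 1 call, COPG2, and 27.3% had an unadjusted p under 0.05, against 20.3% of all probe sets. The arrays do not tell the copies apart, so whether a change came from the maternal or the paternal copy, or from both, was not measured.

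A further list of 48 imprinted genes that are not in the set was read from the same fit. The table held 46 of them, and 5 passed (10.9%, against 5.26% of all probe sets), 4 higher (background 2.64%) and 1 lower (background 2.63%). Above the median signal, where 24 of the 46 lay, 9.84% of all probe sets passed. At an unadjusted p under 0.05 there were 9 of the 46 (19.6%), against 20.3% of all probe sets. The median log2 fold change of the 46 was 0.042. IGF2R, the receptor that takes IGF2 to lysosomes and lies opposite AIRN, had log2 signals of 9.19, 9.10 and 9.23 with siH19-2, against 8.82, 8.83 and 8.83 with NC. Its log2 fold change was 0.35 ± 0.043 (SE, adjusted p = 0.012), and the call was kept without siH19-2 replicates 2 or 3 and lost without any one of the other 4 arrays (adjusted p 0.060 to 0.070). PHACTR2, an actin and phosphatase regulator, had 0.26 ± 0.043 (SE, adjusted p = 0.031), OSBPL5, a lipid transfer protein, had 0.24 ± 0.045 (SE, adjusted p = 0.042), and TRAPPC9, a subunit of a vesicle tethering complex, had 0.20 ± 0.038 (SE, adjusted p = 0.043). ZC3H12C, of a family of RNA-degrading zinc finger proteins, was lower, with 5.71, 5.64 and 5.85 with siH19-2, against 6.24, 6.29 and 6.22 with NC. Its log2 fold change was -0.51 ± 0.063 (SE, adjusted p = 0.012), lost without siH19-2 replicate 1 or any one NC array (adjusted p 0.056 to 0.063). The call of PHACTR2 was kept only without siH19-2 replicate 3 (adjusted p = 0.046), and those of OSBPL5 and TRAPPC9 were lost with any 1 array left out. The smallest adjusted p of these lost calls of OSBPL5 and TRAPPC9 was 0.064 and 0.084.

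Proteins that set, read or protect imprints were listed as 22 genes, of which 3 passed (13.6%, against 5.26%), 2 higher and 1 lower. Above the median signal, where 15 of the 22 lay, 9.84% of all probe sets passed. At an unadjusted p under 0.05 there were 6 of the 22 (27.3%). That share was 20.3% over all probe sets and 29.9% over those above the median signal. MBD1, the partner of H19 in the mouse network, had log2 signals of 8.49, 8.49 and 8.53 with siH19-2, against 8.32, 8.34 and 8.34 with NC, and a log2 fold change of 0.16 ± 0.033 (SE, adjusted p = 0.048). EHMT2, a histone H3 methyltransferase also known as G9a, had 0.17 ± 0.032 (SE, adjusted p = 0.046). DNMT1, which copies methylation to new DNA strands, was lower, with 10.46, 10.47 and 10.47 with siH19-2, against 10.63, 10.61 and 10.64 with NC. Its log2 fold change was -0.16 ± 0.032 (SE, adjusted p = 0.049). All 3 lay just inside the threshold, and with any 1 array left out 0 of the 22 passed. ZFP57 had 0.045 (adjusted p = 0.53), and CTCF, the insulator protein of the H19 control region, had -0.11 ± 0.035 (SE, adjusted p = 0.16).

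**Figure D4:**
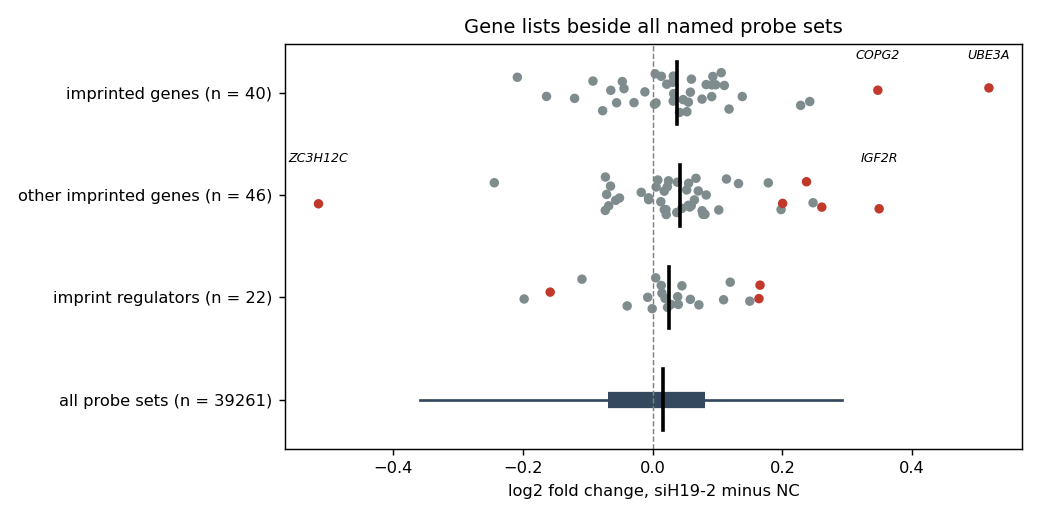
Log2 fold changes (siH19-2 minus NC, horizontal axis) of the 40 imprinted genes, the 46 other imprinted genes and the 22 imprint regulators, with 1 point per gene and an adjusted p under 0.05 in red. Black bars are medians (0.037, 0.042 and 0.026). In the bottom row for all 39261 probe sets the thick bar spans the quartiles, -0.069 to 0.081, and the thin line spans the 2.5th to the 97.5th percentile, -0.36 to 0.29, so that UBE3A, COPG2, IGF2R and ZC3H12C lie outside it.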

How the data were processed

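Total RNA of MIA-PaCa2 cells transfected with siH19-2 (3 samples) or NC (3 samples) was measured on Clariom D arrays. The authors deposited 1 log2 signal per probe set and array after normalization between arrays (the methods name limma for this, the statistics section names JMP for the array data, and which gave the deposited values is uncertain). No background correction, annotation release or genome build of the array was given in the sources used here. A second deposited table gave gene names. Its 9 columns of the authors' own comparison (group means, difference, test statistic, p-values and related scores) were not used for results, although its log2 group means equalled the means of the arrays to within 5.000e-09. Of 39334 probe sets 39261 had a name, and 37866 (96.4%) matched a gene ID of RefSeq assembly GRCh38.p14, as did all 40 imprinted genes. RefSeq supplied chromosomes, gene order and promoter sequences.

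Log2 fold changes (siH19-2 minus NC) were computed from the deposited values with limma 3.58.1 under R 4.3.3 (functions lmFit and eBayes, two-sided, 4 residual and 1.92 prior degrees of freedom). P-values were adjusted by Benjamini-Hochberg over all 39261 probe sets, without a filter on signal, and a gene passed at an adjusted p under 0.05. The procedure was tested on simulated data with independent normal noise and no array that stood apart. That test checked that set changes were recovered on average, and it does not show that the calls in these data are right. Every imprinted gene is named. Values per array are given for those that passed, for those whose groups did not overlap at an unadjusted p under 0.05, and for some others picked with their values known. Of the other lists, the genes that passed are named, except 1 marker that is not reported here, while ZFP57, CTCF, IGF2, VIM and EPCAM were added with their values known. The members and lists were chosen with earlier results of these data known. Alternatives were cyclic loess, leaving out dim probe sets, an intensity trend with a robust prior, and an equal-variance t-test. Others were Bonferroni-Holm adjustment of the limma fit, a replicate block, and leaving out each array in turn. The t-test was adjusted by Benjamini-Hochberg, whereas the methods name Bonferroni-Holm for their t-test. With 3 arrays per group, the number of arrays limits the precision.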

Additional observations from a re-analysis of the deposited data

How the results depend on the processing

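The 2 calls among the imprinted genes became 0 with the replicate number as a block, 0 with Bonferroni-Holm, 3 of the 20 still tested when dim probe sets were left out (20.7% of all probe sets then passed) and 3 with an intensity trend and robust prior (8.78%). They stayed at 2 with cyclic loess and by the equal-variance t-test, which called GNAS in place of COPG2. With 1 array left out they ranged from 1 to 2. UBE3A had an adjusted p of 0.056 with the block and 0.32 with Bonferroni-Holm. COPG2 had 0.12 with the block and 0.053 by the equal-variance t-test. Replicate numbers did not pair the samples. The correlations of same-numbered deviations were 0.0060, 0.0099 and 0.0052, and 0 of 6 samples correlated best with their own number. Over all probe sets the 2067 calls became 74 with the replicate block, 4058 without dim probe sets, 3449 with the trend and robust prior and 43 with Bonferroni-Holm, and ranged from 464 to 1078 with 1 array left out. The 5 calls among the other imprinted genes became 0 with the block, 3 with cyclic loess, 6 without dim probe sets, 7 with the trend and robust prior, 4 by the equal-variance t-test and 0 with Bonferroni-Holm, and the 3 among the imprint regulators became 0, 1, 4, 4, 3 and 0 in that order. With 1 array left out they ranged from 0 to 3 and from 0 to 0. The median log2 fold change of the imprinted genes was 0.022 with cyclic loess, under which the median of all probe sets was -0.0019 against 0.016 as reported. It ranged from 0.031 to 0.054 with 1 array left out, highest without siH19-2 replicate 3. Of the 40 genes 7 changed sign under some setting, at an adjusted p of 0.40 or more. With cyclic loess MKRN3 had -0.010, SNRPN -0.018, ATP10A -5.6e-04 and SLC22A3 -0.015. With 1 array left out DIO3 ranged from -0.16 to 0.012, MAGEL2 from -0.043 to 0.038, MKRN3 from -0.027 to 0.053, SNRPN from -0.047 to 0.065, SNURF from -0.21 to 0.50, ATP10A from -0.0060 to 0.047 and SLC22A3 from -0.030 to 0.045. The cause was not tested, except that fewer arrays or fewer probe sets entered some fits. No detection call is given for the probe sets, so dim ones such as SNURF have no stated limit.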

Other observations

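Small RNA genes that lie within imprinted clusters were read from the same fit after the values of the clusters had been seen, with their place taken from the RefSeq gene order only. The methods name the RNeasy Kit for isolation of mRNA, and how well such short RNAs were recovered is not stated. Signals of these probe sets may therefore not follow the level of the mature small RNAs. Between DLK1 and DIO3 on chromosome 14 the arrays held 52 miRNA genes, of a group that is cut from the maternal transcript of that cluster. Of these 0 passed the test (limma, adjusted p under 0.05), and 8 had an unadjusted p under 0.05, 4 higher and 4 lower with siH19-2 (15.4%, against 9.78% of all miRNA genes and 20.3% of all probe sets). Over all miRNA genes 8 of 1533 passed (0.522%). The median log2 fold change of the 52 was -0.031, with a range from -0.52 to 0.66, and 11 of them lay above the median signal. In the same interval lay 40 small nucleolar RNA genes, SNORD112 and copies of SNORD113 and SNORD114, which guide no known modification of ribosomal RNA. Among them 1 passed, against 9 of 309 small nucleolar RNA genes in all (2.91%). SNORD114-15 had log2 signals of 4.88, 4.63 and 4.69 with siH19-2, against 4.36, 4.29 and 4.29 with NC, and its log2 fold change was 0.42 ± 0.071 (SE, limma, adjusted p = 0.031). The call was kept without siH19-2 replicate 1 (adjusted p = 0.048) and lost without any one of the other 5 arrays (adjusted p 0.052 to 0.12). The copies of the family are related in sequence, but their sequences were not compared here. Whether its probe set also reads others of them is not known.

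Between SNURF and UBE3A on chromosome 15 the arrays held 29 small nucleolar RNA genes, copies of SNORD115 and SNORD116 that are processed from the paternal transcript running toward UBE3A. Of these 0 passed and 3 had an unadjusted p under 0.05 (10.3%, against 19.1% of all small nucleolar RNA genes). The median log2 fold change of the 29 was -0.035, with 14 positive and 15 negative, beside 0.52 for UBE3A itself. Only 4 of the 29 lay above the median signal of all probe sets, and these 4 had negative log2 fold changes. They were SNORD116-14 at -0.19 (limma, adjusted p = 0.56), SNORD116-23 at -0.32 (0.22), SNORD116-24 at -0.23 (0.63) and SNORD115-24 at -0.27 (0.38). Only for SNORD116-23 did the groups not overlap, and SNORD116-24 ranged from -0.42 to 0.020 with 1 array left out. Small nucleolar RNA genes leaned the same way as a class. Of all 309, 196 were negative and 113 positive, with a median of -0.050. The dim ones had wide intervals, so the median says little about them. IGF2R, taken up with its value known, lies among 10 measured protein-coding neighbours of which 0 passed. Their log2 fold changes ran from -0.025 for PNLDC1 to 0.16 for MAS1, with a lowest adjusted p of 0.25.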
